A study of Homo sapiens with 18 samples.

Results

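The 10 genes CD14, CD33, CD34, CD36, CD38, ITGAM, ITGAX, FCGR1A, CLEC12A and CD86 were chosen by name, as genes of surface proteins by which myeloid cells and their precursors are recognized. They are 10 of the 20020 protein-coding genes of GENCODE release 44. For each histone modification, the intervals that overlap 2 kb on either side of any annotated transcription start site (TSS) of a gene were taken, and the 1 with the highest mean count over the 4 libraries stands for its promoter. Intervals farther out, within 20 kb of a TSS, were counted as distal.

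H3K4me3, H3K27ac, H3K4me1 and H3K27me3 were mapped in MOLM-13, a KMT2A-rearranged line from human acute myeloid leukemia, by Cut&Tag, in which antibody-bound chromatin is cut and tagged by the Tn5 transposase. One group received 100 nM PR-957, an inhibitor of the immunoproteasome subunit PSMB8, and the other received the solvent DMSO. The sample labels give a treatment of 72 h, whereas a legend of the study gives a shorter time. Each treatment has 2 libraries per modification, 16 in all, and nothing says that they are separate cultures, so that p-values measure the spread between these libraries. The 2 IgG samples are not analysed here, and no background was subtracted.

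The deposited counts per library were deepest for H3K4me3, with totals of 44591150 and 42037643 in DMSO and 30070119 and 30454212 in PR-957. For H3K4me1 they were 30584219 and 23874111 in DMSO and 15204186 and 22790073 in PR-957. In both of these modifications the PR-957 libraries were shallower than the DMSO libraries. The H3K27ac libraries held 13235793 and 9984719 counts in DMSO and 9885836 and 14165777 in PR-957. The H3K27me3 libraries held 10032503 and 11976443 in DMSO and 10380816 and 12047958 in PR-957. Levels are given as CPM, the count relative to the library total, scaled by edgeR's trimmed mean of M values (TMM), per kb of the interval.

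H3K4me3 marks the start sites of active or poised genes, H3K27ac marks active promoters and enhancers, and H3K4me1 is spread over enhancers and the flanks of promoters. H3K27me3 is laid down by Polycomb repressive complexes over silent developmental genes. Myeloid surface antigens come and go along differentiation, CD34 on stem and progenitor cells and CD14 or ITGAM on monocytes, and their promoters are often small, poor in CpG and bound by PU.1 and CEBP factors.

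The myeloid identity of the line was looked at first through 8 genes of myeloid transcription factors, granule proteins and receptors. Of these, 5 had a promoter interval in H3K4me3, 6 in H3K27ac, 6 in H3K4me1 and 0 in H3K27me3. Of all protein-coding genes, 63.9% had one in H3K4me3, 60.4% in H3K27ac, 43.5% in H3K4me1 and 19.9% in H3K27me3. By DMSO level in H3K4me3, SPI1, which encodes PU.1, stood at percentile 97.5 of the protein-coding genes with an interval and CEBPA at 89.5, whereas CSF3R stood at 32.4, LYZ at 18.8 and CSF1R at 16.7. The granule genes ELANE and AZU1 had no interval in any modification, and MPO had none in H3K4me3. Of 6 T cell markers, 1 was listed in H3K4me3 and 1 in H3K27ac. Of 4 NK cell markers the numbers were 1 and 1, and of 7 erythroid and megakaryocyte markers 2 and 1, with EPOR at percentile 88.3 and ITGA2B at 10.8 in H3K4me3. Of the B cell genes CD79A, CD22, CD79B and PAX5, CD79A stood at percentile 64.7 by DMSO level in H3K27ac, CD22 at 5.91, CD79B at 1.19 and PAX5 at 0.219. PAX5 also carried H3K27me3, at percentile 91.9.

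Promoter intervals were present for 5 of the 10 surface marker genes in H3K4me3, 4 in H3K27ac, 9 in H3K4me1 and 1 in H3K27me3. The shares of all protein-coding genes were 63.9%, 60.4%, 43.5% and 19.9% in the same order. CD33, CD38, ITGAM and ITGAX carried H3K4me3, H3K27ac and H3K4me1 together, as did 31.0% of protein-coding genes. CD36, CLEC12A and CD86 carried H3K4me1 alone, a combination found in 1.84% of protein-coding genes. CD34 carried H3K4me1 and H3K27me3, found in 1.04%, but at different starts, since at its MANE start it had H3K27me3 and no H3K4me1. CD14 carried H3K4me3 and H3K4me1, found in 0.759%. FCGR1A had no interval in any of the 4 modifications, like 23.8% of genes. Genes with many start sites have more sequence in which an interval can be found, and CD36 has 20 annotated start positions against 4 for CD14, CD34 and FCGR1A.

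Of the member intervals that were tested, edgeR's quasi-likelihood test with Benjamini-Hochberg adjustment over all intervals at 0.05 called 0 of 5 in H3K4me3, 0 of 4 in H3K27ac, 0 of 9 in H3K4me1 and 0 of 1 in H3K27me3. Among all tested intervals edgeR called 0.226% in H3K4me3, 0.238% in H3K27ac, 1.94% in H3K4me1 and 5.92% in H3K27me3. At an unadjusted edgeR p under 0.05 the members numbered 0, 0, 2 and 0 in the same order, beside 7.52%, 8.01%, 16.2% and 15.6% of all tested intervals. DESeq2 also called 0 in each modification, but its independent filtering left an adjusted p for only 4 of the 5 members in H3K4me3, 8 of the 9 in H3K4me1 and 0 in H3K27ac and H3K27me3. Of the intervals that kept an adjusted p, DESeq2 called 0.0622% in H3K4me3, 2.28% in H3K27ac, 0.0245% in H3K4me1 and 19.6% in H3K27me3. Its filtering target was set to the 0.05 threshold after a run with the default target had been seen, and that run also called 0 members. A p above the threshold does not show that a promoter was unaltered.

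The median log2 fold change of the members, PR-957 over DMSO, was -0.10 in H3K4me3, 0.03 in H3K27ac and -0.09 in H3K4me1. The median of all tested intervals was within 0.01 of 0 in these modifications. No direction is given for the list, since none of its intervals passed the test.

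**Figure D1:**
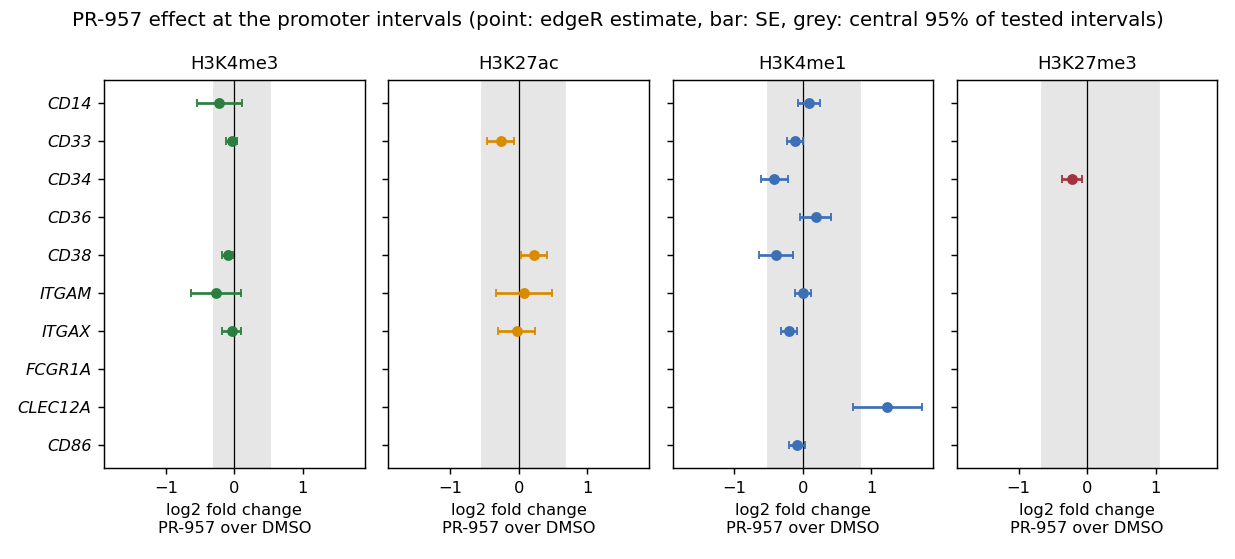
Log2 fold change (PR-957 over DMSO) of each promoter interval with its standard error, from edgeR; the grey band holds the central 95% of all tested intervals of that modification. CLEC12A in H3K4me1 lies at 1.23, above the band's upper end of 0.83, and the other 18 points lie inside their bands.

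CD33 encodes a sialic acid binding lectin (Siglec-3) and is the target of an antibody-drug conjugate used in acute myeloid leukemia. Its H3K4me3 interval on chromosome 19, from 51224121 to 51226976 in hg38, spans the start site. H3K4me3 was 7.51 and 6.98 CPM per kb in DMSO and 6.91 and 7.19 in PR-957. The treatments overlapped, and the DMSO mean stood at percentile 84.8 of protein-coding genes with an H3K4me3 interval. H3K27ac was 3.26 and 3.21 CPM per kb in DMSO and 2.74 and 2.66 in PR-957, so both PR-957 libraries were lower. The log2 fold change was -0.26 with a standard error (SE) of 0.20, and the adjusted p of edgeR was 0.822. The H3K4me1 interval with the most counts lies beyond the 3′ end of the MANE transcript and also overlaps the promoter window of the neighboring gene SIGLECL1. It held 4.15 and 3.80 CPM per kb in DMSO and 3.53 and 3.81 in PR-957. At the MANE start itself H3K4me1 was lower, 1.24 and 1.21 in DMSO and 1.27 and 1.12 in PR-957, and the treatments overlapped at both places.

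CD38 encodes an ectoenzyme that breaks down NAD and is a target of therapeutic antibodies in myeloma. H3K4me3 at its start site was 7.20 and 7.11 CPM per kb in DMSO and 6.50 and 6.87 in PR-957. The log2 fold change was -0.10 (SE 0.08), with an adjusted p of 0.861 in edgeR, and -0.059 without PR-957 replicate 1. H3K27ac was 4.16 and 3.75 CPM per kb in DMSO and 5.25 and 4.15 in PR-957. The lower PR-957 library lay between the DMSO libraries, so the treatments overlapped. H3K4me1 was 1.42 and 1.34 in DMSO and 0.983 and 1.11 in PR-957, lower in both PR-957 libraries. Its log2 fold change was -0.39 (SE 0.25), with an adjusted p of 0.432 in edgeR.

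CD34 encodes a sialomucin of hematopoietic stem and progenitor cells and of endothelium. It was the 1 member with H3K27me3, on an interval of chromosome 1 from 207908441 to 207913849 that spans the start site, and it had neither H3K4me3 nor H3K27ac there. H3K27me3 was 3.54 and 3.44 CPM per kb in DMSO and 2.95 and 3.02 in PR-957, lower in both PR-957 libraries. The log2 fold change was -0.22 (SE 0.15), with an adjusted p of 0.514 in edgeR, and the DMSO mean stood at percentile 73.8. With library size alone in place of TMM the log2 fold change was -0.06, and the median of all H3K27me3 intervals moved from 0.02 to 0.18. The H3K4me1 interval of CD34 lies inside the gene, 19780 bases downstream of the MANE start, next to another annotated start. It held 1.64 and 1.56 CPM per kb in DMSO and 1.20 and 1.20 in PR-957. Both PR-957 libraries were lower, the log2 fold change was -0.42 (SE 0.20), and edgeR gave an unadjusted p of 0.0342 and an adjusted p of 0.261.

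CLEC12A encodes an inhibitory C-type lectin receptor of myeloid cells and leukemic blasts. Its 1 interval, H3K4me1 over 0.837 kb at the start site, had raw counts of 18 and 16 in DMSO and 24 and 34 in PR-957. Scaled levels were 0.728 and 0.799 CPM per kb in DMSO and 1.84 and 1.77 in PR-957. Both PR-957 libraries were above both DMSO libraries, although they were the shallower ones. The log2 fold change of 1.23 (SE 0.50) had an unadjusted p of 0.0132 and an adjusted p of 0.172 in edgeR, the lowest of the 9 members in H3K4me1, and it is not called. DESeq2 gave it no adjusted p. With 16 to 34 counts, the difference rests on few fragments.

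Stretches before the start sites of 5 genes are shown to set CD33, CD38 and ITGAM, which carry H3K4me3, beside CLEC12A and CD86, which carry H3K4me1 alone. They are from RefSeq promoters on GRCh38.p14, which hold 250 bases before and 50 after a start, and bases inside an annotated exon were left out. The RefSeq table held 9 of the 10 genes and not ITGAX. Capitals mark the letters GAGGAA (PU.1 core) or TGTGGT (RUNX core) on either strand.
CD33 (chr19:51224830-51225063, plus strand): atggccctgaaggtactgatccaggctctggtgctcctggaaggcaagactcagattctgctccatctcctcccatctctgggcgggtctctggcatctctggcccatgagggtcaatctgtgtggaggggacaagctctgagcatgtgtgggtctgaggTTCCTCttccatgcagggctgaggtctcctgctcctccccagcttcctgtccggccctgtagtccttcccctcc
CD38 (chr4:15778078-15778274, plus strand): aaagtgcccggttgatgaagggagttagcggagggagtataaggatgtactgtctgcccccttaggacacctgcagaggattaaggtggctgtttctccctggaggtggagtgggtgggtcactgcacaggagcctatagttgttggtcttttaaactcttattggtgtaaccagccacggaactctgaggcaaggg
ITGAM (chr16:31259725-31259966, plus strand): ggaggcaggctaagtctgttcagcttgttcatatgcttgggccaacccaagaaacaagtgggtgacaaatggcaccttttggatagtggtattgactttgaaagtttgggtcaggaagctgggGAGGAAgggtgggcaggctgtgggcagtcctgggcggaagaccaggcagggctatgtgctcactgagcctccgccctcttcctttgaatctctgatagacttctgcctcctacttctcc
CLEC12A (chr12:9971159-9971408, plus strand): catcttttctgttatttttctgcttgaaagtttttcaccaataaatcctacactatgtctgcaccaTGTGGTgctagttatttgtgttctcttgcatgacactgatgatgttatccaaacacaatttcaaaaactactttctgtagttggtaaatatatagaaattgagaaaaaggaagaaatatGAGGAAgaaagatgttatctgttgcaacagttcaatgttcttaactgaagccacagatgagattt
CD86 (chr3:122055112-122055361, plus strand): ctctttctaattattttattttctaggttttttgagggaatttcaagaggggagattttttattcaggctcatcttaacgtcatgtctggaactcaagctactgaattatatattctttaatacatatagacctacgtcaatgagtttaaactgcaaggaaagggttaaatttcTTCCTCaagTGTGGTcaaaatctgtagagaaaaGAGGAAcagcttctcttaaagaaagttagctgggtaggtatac

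The 9 genes have 15 promoters in the table, 6 of them of CD36 and 2 of CD86. On both strands of the 300 bases, GAGGAA occurred in 11 of the 15, from all of the 9 genes but CD38, and in 27.9% of 35116 RefSeq promoters. TGTGGT was in 6 of the 15, from CD36, ITGAM, CLEC12A and CD86, and in 13.1% of all. Overlapping promoters of CD36 share 1 GAGGAA and 1 TGTGGT, and each of these sites is counted in both. The letters TTGCNNAA (CEBP palindrome core) were in none of the members' promoters and in 10.5% of all, and TATAAA was in 3 of the 15, from CD36 and CLEC12A, and in 11.5% of all. A match describes letters only. The observed over expected ratio of CpG dinucleotides was 0.666 at CD34 and ran from 0 at CLEC12A to 0.350 at CD14 in the other 14 promoters, against a median of 0.579 over all promoters. Of the 9 genes, CD34 had the highest ratio, at percentile 55.5 of all promoters, and it was the 1 with H3K27me3. A link between the ratio and H3K27me3 was not tested.

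Among the monocyte receptors, CD14, the co-receptor for bacterial lipopolysaccharide, had weak H3K4me3 at its start. It was 0.890 and 0.912 CPM per kb in DMSO and 0.816 and 0.731 in PR-957, percentile 5.61 of listed genes by the DMSO mean. Both PR-957 libraries were lower, with a log2 fold change of -0.22 (SE 0.33) and an adjusted p of 0.941 in edgeR. It was -0.14 without PR-957 replicate 2. With a 5 kb window another interval was taken, at the promoter of the neighboring gene TMCO6, and its log2 fold change was -0.12. H3K4me1 at CD14 was 1.19 and 1.23 in DMSO and 1.40 and 1.19 in PR-957, and the treatments overlapped. CD36, a scavenger receptor for lipids, had H3K4me1 of 2.02 and 1.41 CPM per kb in DMSO and 1.98 and 1.97 in PR-957, on an interval that ends 1457 bases upstream of the MANE start. The 2 DMSO libraries of CD36 differed more than the treatments. FCGR1A encodes the high-affinity Fc receptor CD64, and it has near-identical copies in the genome. The sources used here do not say how reads matching several copies were treated, so the lack of an interval is uncertain.

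ITGAM and ITGAX encode the alpha chains CD11b and CD11c, which pair with the beta chain of ITGB2 into adhesion and complement receptors. ITGAM had H3K4me3 of 0.805 and 0.617 CPM per kb in DMSO and 0.632 and 0.551 in PR-957, at percentile 3.40. ITGAX had 1.69 and 1.62 in DMSO and 1.72 and 1.50 in PR-957, at percentile 12.5. The treatments overlapped in both genes. H3K27ac of ITGAM was 1.88 and 1.22 in DMSO and 1.22 and 2.05 in PR-957, and H3K27ac of ITGAX was 3.04 and 2.40 in DMSO and 3.36 and 2.12 in PR-957. Libraries of the same treatment differed more than the treatments. The H3K27ac interval of ITGAX ends 1730 bases upstream of the MANE start. Listed H3K27ac also spans that start, from -965 to 662 bases around it. With a 1 kb window, which leaves out the upstream interval, the log2 fold change was 0.37, with an adjusted p of 0.869 in edgeR. H3K4me1 was broad, over 9.61 kb at ITGAM and 14.4 kb at ITGAX. At ITGAM it was 2.57 and 2.44 CPM per kb in DMSO and 2.55 and 2.48 in PR-957, and at ITGAX 4.12 and 3.51 in DMSO and 3.23 and 3.40 in PR-957. Both PR-957 libraries of ITGAX were lower, with a log2 fold change of -0.20 (SE 0.12) and an adjusted p of 0.377 in edgeR, but it was -0.080 without DMSO replicate 1 and -0.31 without DMSO replicate 2.

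CD86 encodes a costimulatory ligand of CD28 on antigen-presenting cells. Its H3K4me1 interval with the most counts lies in an intron, 18216 bases downstream of the MANE start and beside another start. It held 4.23 and 4.10 CPM per kb in DMSO and 3.58 and 4.21 in PR-957, at percentile 95.9, and the treatments overlapped. At the MANE start the level was 1.16 and 1.13 in DMSO and 1.54 and 1.18 in PR-957. There both PR-957 libraries were higher, with a log2 fold change of 0.22 (SE 0.28) and an adjusted p of 0.739 in edgeR, so the sign depends on the start that is used.

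**Figure D2:**
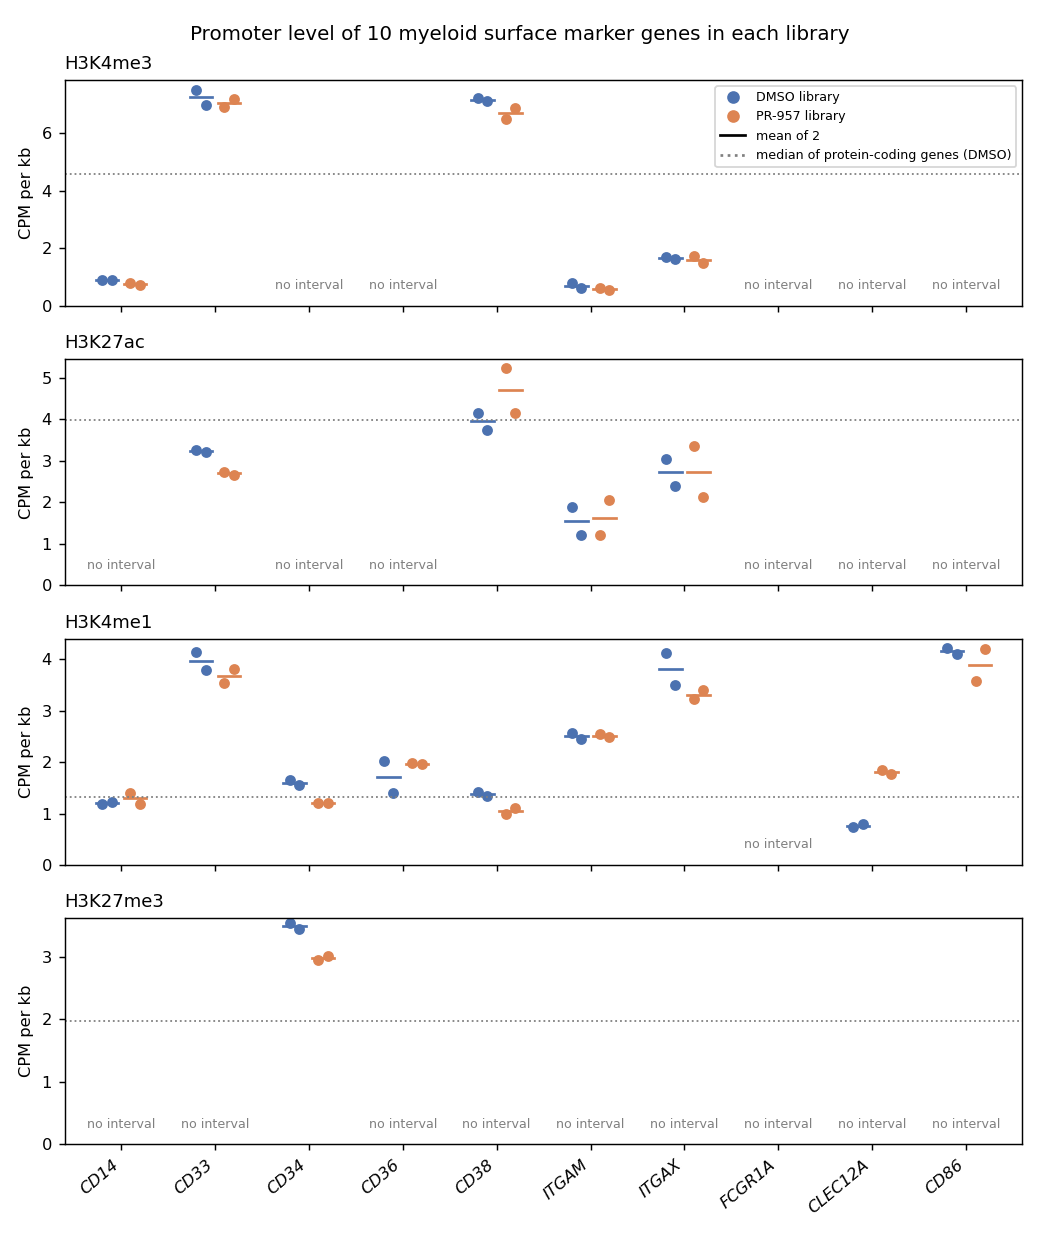
CPM per kb of the promoter interval of each gene in every library, with the mean of 2 libraries as a bar and the DMSO median of all protein-coding genes with an interval as a dotted line. In H3K4me3, CD33 and CD38 lie above the median of 4.59 and ITGAX, CD14 and ITGAM below it.

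Over 4 libraries the H3K4me3 level was highest at CD33 (7.15 CPM per kb) and CD38 (6.92), whose ranges overlapped, followed by ITGAX (1.63), CD14 (0.837) and ITGAM (0.651). The ranges of CD14 and ITGAM overlapped, and ITGAX stood apart from both sides. In H3K27ac the order was CD38 (4.33), CD33 (2.97), ITGAX (2.73, from the interval upstream of its start) and ITGAM (1.59). CD33 and ITGAX did not differ beyond their spread. In H3K4me1 the order began with CD86 (4.03), CD33 (3.82) and ITGAX (3.56), each overlapping the next, but the intervals of CD86 and CD33 lie 18216 and 15492 bases downstream of the MANE start, where their levels were 1.25 and 1.21 over 4 libraries. ITGAM (2.51) stood apart, and CD36 (1.84), CD34 (1.40), CLEC12A (1.28), CD14 (1.25) and CD38 (1.21) each overlapped the next. The place of CLEC12A comes from pooling treatments that did not overlap, with a mean of 0.764 in DMSO, the lowest of the 9, and of 1.80 in PR-957, above CD34, CD14 and CD38.

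**Figure D3:**
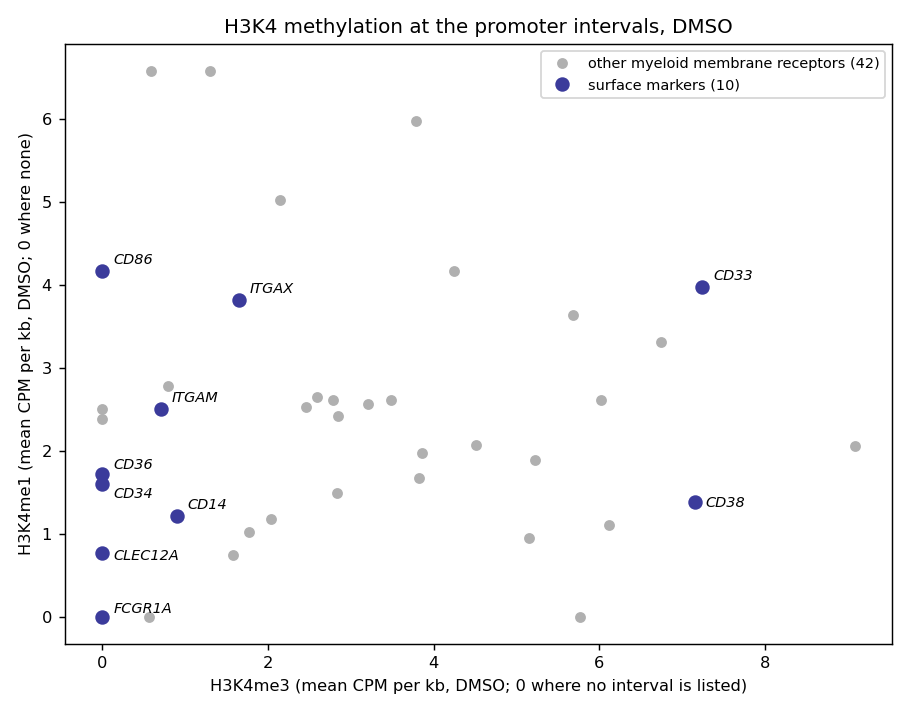
Mean DMSO level of H3K4me1 against that of H3K4me3 at the promoter interval, for the 10 surface marker genes and 42 other myeloid membrane receptors, with a gene that has no interval at 0. CD33 and CD38 have the highest H3K4me3 of the 10 genes. The H3K4me1 intervals of CD33, CD34, CD36 and CD86 lie away from the MANE start. At that start CD33 has 1.22 CPM per kb of H3K4me1 and CD38 has 1.38. In some of the other receptors, among them CSF1R and KIT, the H3K4me1 and H3K4me3 intervals do not overlap.

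Distal intervals were most frequent for H3K4me1, with 64 intervals in 25 loci around 8 of the 10 genes. There were 24 in 11 loci for H3K27ac, 19 in 7 for H3K4me3 and 5 in 2 for H3K27me3, the last all at CD34. CD34 and CD86 thus had H3K4me3 and H3K27ac within 20 kb of a start although not at the promoter, whereas CLEC12A and FCGR1A had no distal interval. Those of CD34 lie beyond its transcript end, 36305 to 37362 bases downstream of the MANE start. Those of CD86 lie in introns, 10386 bases downstream of the MANE start for H3K4me3 and 29658 for H3K27ac. At CD14 all 8 distal H3K4me3 intervals lay at promoters of other genes. EdgeR called 0 distal intervals in each modification, with 0 at an unadjusted p under 0.05 for H3K4me3, 1 for H3K27ac, 2 for H3K4me1, which are nested at 1 locus, and 0 for H3K27me3, and DESeq2 called 0. At that unadjusted p, 7.52%, 8.01%, 16.2% and 15.6% of all tested intervals passed. DESeq2 gave an adjusted p to 16 of the H3K4me3, 0 of the H3K27ac, 64 of the H3K4me1 and 0 of the H3K27me3 intervals.

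The distal interval with the smallest p was not called in any modification. For H3K27ac it lay 12655 bases upstream of CD33, with 3.26 and 3.61 CPM per kb in DMSO and 1.52 and 3.03 in PR-957, and an adjusted p of 0.588 in edgeR. Most of that difference came from 1 PR-957 library. For H3K4me1 it lay near SIGLECL1 beyond CD33, with 1.53 and 1.60 in DMSO and 2.32 and 1.98 in PR-957, and an adjusted p of 0.271 in edgeR. For H3K4me3 it covered the promoters of IK and NDUFA2 near CD14 (adjusted p 0.697 in edgeR), and for H3K27me3 it lay 8068 bases upstream of CD34 (adjusted p 0.813 in edgeR).

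Of the 42 other myeloid membrane receptors, 28 had a promoter interval in H3K4me3, 30 in H3K27ac, 28 in H3K4me1 and 3 in H3K27me3. EdgeR called 0 in H3K4me3, 0 in H3K27ac and 0 in H3K4me1, with 3, 3 and 7 at an unadjusted p under 0.05 beside 7.52%, 8.01% and 16.2% of all tested intervals. DESeq2 called 0 in each, but gave an adjusted p to only 26 of the 28 in H3K4me3 and 2 of the 30 in H3K27ac. In H3K27me3, edgeR called 1, lower in PR-957, which was ANPEP, the aminopeptidase CD13, beside 5.92% of all tested intervals. It held 1.82 and 2.47 CPM per kb in DMSO and 1.47 and 1.35 in PR-957, with a log2 fold change of -0.62 (SE 0.19) and an adjusted p of 0.0336 in edgeR. The call was lost with library size alone (log2 fold change -0.46, adjusted p 0.164 in edgeR) and without DMSO replicate 2 (-0.39, 0.554), PR-957 replicate 1 (-0.70, 0.110) or PR-957 replicate 2 (-0.56, 0.232), and DESeq2 gave no adjusted p. ITGB2, the partner of ITGAM and ITGAX, had H3K4me3 of 6.86 and 6.63 in DMSO and 5.82 and 6.85 in PR-957, above both alpha chains. CSF1R, the receptor for macrophage colony-stimulating factor, had H3K4me1 of 5.36 and 4.69 in DMSO and 4.75 and 5.15 in PR-957. The intervals that stand for CSF1R in H3K4me3, H3K27ac and H3K4me1 do not overlap, so its values are from different places. KIT, the stem cell factor receptor, had H3K27me3 of 1.88 and 1.92 in DMSO and 1.38 and 2.13 in PR-957, and here, as in H3K4me1 of CSF1R, the treatments overlapped. They did not overlap in H3K27ac of KIT (log2 fold change 1.3, adjusted p 0.532 in edgeR) or CSF1R (-0.28, 0.702), in H3K4me3 of CSF1R (0.16, 0.878) or in H3K4me1 of ITGB2 (-0.26, 0.244), and none of these was called. The H3K27ac interval of KIT had raw counts of only 7 and 15 in DMSO and 30 and 27 in PR-957.

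The genes most like 4 of the members were found by Euclidean distance over the 16 libraries of log2 CPM per kb with 0.1 added. For CD33 they were LCP2, an adaptor of immune receptor signaling (distance 0.463), and VRK3 (0.552), with the H3K4me1 interval beyond the transcript end of CD33 in its profile, so they need not be the nearest to its start site. For CD38 they were PLEKHJ1 and SF3A2 (both 0.592), which share their intervals. For ITGAM they were FCAMR (0.751) and IL17RE (0.908), and for ITGAX FCGRT (0.807) and AXL (0.891).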

How the data were processed

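Cut&Tag was measured in 16 MOLM-13 libraries. The authors deposited raw, whole-number counts of reads or fragments, with 1 interval list for the 4 libraries of a modification. Submitters' processing notes name Trimmomatic 0.39, Bowtie2 2.2.5, Picard 2.27.1, SAMtools 1.7, SEACR 1.3 and deepTools 3.5.1. The genome is hg38, the sources used here do not name the counter, and coordinates follow the deposited lists.

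After filterByExpr (minimum count 10) and TMM scaling, intervals were tested per modification in edgeR 4.0.16 (R 4.3.3), with Benjamini-Hochberg adjustment over all tested intervals at 0.05 and without the replicate number as a block. With 2 libraries against 2, an exact permutation test cannot go below a p of 0.333. The fit was tested on simulated data. Genes were matched to GENCODE release 44 in Python 3.11.15.

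DESeq2 1.42.0 was the alternative tool. It was first run with its default independent filtering target of 0.1, which called 25 intervals in H3K4me3, 85 in H3K27ac, 4 in H3K4me1 and 1259 in H3K27me3. After these counts had been seen beside counts from an earlier processing of the same data, the target was set to the 0.05 threshold, which gave 34, 85, 26 and 1278 and is used in the text. Every interval DESeq2 called was also called by edgeR under either target.

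Named genes were the members, the distal interval with the smallest p per modification where none was called, the 2 genes nearest to each member with intervals in at least 3 modifications, and CSF1R, KIT, ITGB2 and any called receptor. The members and lists were chosen with earlier results of these data known. Other alternatives were scaling by library size only or by median-of-ratios factors, a minimum mean count of 50 or no filter, 1 interval per locus, the replicate block, windows of 1 and 5 kb, the MANE Select start alone, and leaving out each library.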

Additional observations from a re-analysis of the deposited data

How the results depend on the processing

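No member and no distal interval was called under any alternative run, in edgeR or DESeq2. Of 262 values of single members, 13 had the opposite sign and 0 were called, and the lowest adjusted p was 0.150, for CLEC12A with library size only in edgeR. Outside left-out libraries the sign turned for ITGAX in H3K27ac with a 1 kb window (log2 fold change 0.37) and for CD86 in H3K4me1 with the MANE start (0.22). With 1 library left out, the log2 fold change ran from -0.090 to 0.014 for CD33 and from -0.15 to 0.057 for ITGAX in H3K4me3, and from -0.37 to 0.44 for ITGAM and from -0.37 to 0.29 for ITGAX in H3K27ac. In H3K4me1 it ran from -0.029 to 0.21 for CD14, -0.036 to 0.49 for CD36, -0.031 to 0.044 for ITGAM and -0.22 to 0.014 for CD86. Each range holds 0, no value in it was called, and the cause was not tested. Without a turn of sign it ran from 0.066 to 0.40 for CD38 in H3K27ac, -0.44 to -0.060 for ITGAM in H3K4me3 and -0.17 to -0.045 for CD33 in H3K4me1.

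Counts over all intervals moved more. EdgeR called 134 in H3K4me3, 177 in H3K27ac, 2099 in H3K4me1 and 1882 in H3K27me3. With 1 interval per locus, where fewer intervals are tested, the counts were 31, 39, 539 and 488. DESeq2 called 34 in H3K4me3, 85 in H3K27ac and 26 in H3K4me1. With its default filtering target, added after seeing the data, it called 25, 85 and 4, so the H3K4me1 count of DESeq2 depends on that target. Leaving out 1 library gave 28 to 170 in H3K4me3, 20 to 89 in H3K27ac, 322 to 1756 in H3K4me1 and 1168 to 1517 in H3K27me3, with the left-out treatment's lone library assumed to vary like the others. In H3K27me3, 262 calls were higher and 1620 lower with TMM, against 1521 and 698 with library size alone. In H3K4me1 the calls were 1341 higher and 758 lower, against 1902 and 465. With the replicate number as a block, edgeR called 161, 195, 1904 and 1324, and 0 members. Same-numbered libraries deviated together with r of 0.167, -0.0089, 0.0068 and -0.0069 across intervals, and with 2 pairs the numbers are not taken to pair samples. ANPEP in H3K27me3 had an adjusted p of 0.117 with the block, and 0.0107 to 0.554 over the alternatives in edgeR. Depth was low for CLEC12A in H3K4me1, with 16 to 34 counts, and for ITGAM in H3K27ac, with 20 to 48.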
